A study of Mus musculus with 2 samples.

Results

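Anti-FLAG chromatin immunoprecipitation (ChIP-seq) of tagged HLF (hepatic leukemia factor) gave 865 peaks inside protein-coding genes, a short way in from a gene end. The centre of such a peak fell within the bounds of a coding gene, and the closest start or end coordinate of any coding gene was over 1 kb and at most 20 kb away. They were 865 of 3153 peaks, or 27.4% (95% Clopper-Pearson exact interval 25.9 to 29.0%). Coordinates are those of mm10. They are called near-end intragenic peaks here, and the gene that holds one is called its host.

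The FLAG-HLF arm was wild-type mouse LSK cells (lineage-negative, Sca-1+, c-Kit+ hematopoietic stem and progenitor cells) infected with a retrovirus, pMX-3xFLAG-Hlf/Hlf-IRES-GFP, so the factor was tagged and expressed from a viral vector. The GFP-ctrl arm was the same cells with pMX-GFP. Both arms began from a pool of sorted cells, were cultured for 5 days in OP9 medium containing IL-3, IL-7, SCF and Flt3L, and gave 1 library each. The FLAG-HLF peak list was used, and a list for the GFP-ctrl arm was not analysed here. The list gives positions alone, without heights, read counts or expression, so depth is unknown, the LSK identity rests on the sort, and no value has a replicate check.

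HLF belongs to the PAR bZIP family of transcription factors, with DBP and TEF. These proteins pair through a leucine zipper and bind a palindrome whose arms read GTAA, which the repressor NFIL3 also recognises. In the sites of the related C/EBP factors the arms read GCAA. In blood formation HLF is known as a factor of stem and multipotent progenitor cells, and it is part of a fusion oncoprotein with TCF3 in B cell leukemia. Regulatory elements inside genes are often found in the early introns, near the start of transcription.

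Most of the 865 peaks had no reference sequence in the tables used here, but 31 of them overlapped a RefSeq promoter window, which runs from 250 bases before to 50 bases after an annotated transcription start. The windows showed what lay under those peaks. Of the 31 peaks, 7 held a word of the bZIP type in the shared bases, and in each of the 7 the nearest such word was at most 39 bases from the peak centre (median 9 bases). The 7 stretches are shown because they are the near-end intragenic peaks for which a bZIP word can be read, and they are given 5′ to 3′ on the strand of the annotated start (RefSeq, GRCm38.p6). Capitals mark TTATGTAA, a PAR bZIP site, and TTATGCAA, which ends in the C/EBP arm GCAA, on either strand.
Per1 (chr11:69098730-69098998, plus strand): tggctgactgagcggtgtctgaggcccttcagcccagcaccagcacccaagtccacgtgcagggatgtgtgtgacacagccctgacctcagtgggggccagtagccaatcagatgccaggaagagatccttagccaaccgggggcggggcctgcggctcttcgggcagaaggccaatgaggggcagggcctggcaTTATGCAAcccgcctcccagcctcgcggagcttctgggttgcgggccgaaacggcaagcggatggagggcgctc
Aldh3b1 (chr19:3929729-3929961, minus strand): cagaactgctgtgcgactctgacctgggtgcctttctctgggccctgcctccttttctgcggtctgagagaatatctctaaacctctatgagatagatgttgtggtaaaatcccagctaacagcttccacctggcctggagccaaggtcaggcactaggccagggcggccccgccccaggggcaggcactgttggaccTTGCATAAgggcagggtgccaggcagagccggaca
Fam78a (chr2:32084661-32084919, minus strand): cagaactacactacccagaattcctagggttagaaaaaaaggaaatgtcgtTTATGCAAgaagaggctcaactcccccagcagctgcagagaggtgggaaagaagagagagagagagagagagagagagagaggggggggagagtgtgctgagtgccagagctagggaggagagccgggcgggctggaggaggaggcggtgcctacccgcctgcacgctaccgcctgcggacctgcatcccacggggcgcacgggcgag
Plppr2 (chr9:21936760-21937059, plus strand): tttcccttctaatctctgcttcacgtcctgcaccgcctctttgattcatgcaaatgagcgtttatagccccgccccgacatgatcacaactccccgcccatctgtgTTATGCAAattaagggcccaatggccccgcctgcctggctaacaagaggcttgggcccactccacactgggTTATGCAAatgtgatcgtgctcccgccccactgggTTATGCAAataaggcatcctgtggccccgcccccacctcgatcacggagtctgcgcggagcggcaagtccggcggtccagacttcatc
Nt5c3 (chr6:56901837-56902136, minus strand): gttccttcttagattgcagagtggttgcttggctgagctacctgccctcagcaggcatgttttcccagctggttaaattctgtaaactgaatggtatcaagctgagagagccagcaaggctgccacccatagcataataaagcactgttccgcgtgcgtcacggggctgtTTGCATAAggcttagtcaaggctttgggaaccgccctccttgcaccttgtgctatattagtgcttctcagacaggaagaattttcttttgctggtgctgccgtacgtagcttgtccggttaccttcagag
4931406C07Rik (chr9:15301558-15301752, minus strand): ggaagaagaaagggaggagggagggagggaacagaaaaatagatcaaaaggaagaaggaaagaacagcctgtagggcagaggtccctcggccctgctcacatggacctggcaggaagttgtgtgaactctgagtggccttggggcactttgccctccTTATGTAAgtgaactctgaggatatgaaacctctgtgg
Gm46183, inside Srgap1 (chr10:121796052-121796351, plus strand): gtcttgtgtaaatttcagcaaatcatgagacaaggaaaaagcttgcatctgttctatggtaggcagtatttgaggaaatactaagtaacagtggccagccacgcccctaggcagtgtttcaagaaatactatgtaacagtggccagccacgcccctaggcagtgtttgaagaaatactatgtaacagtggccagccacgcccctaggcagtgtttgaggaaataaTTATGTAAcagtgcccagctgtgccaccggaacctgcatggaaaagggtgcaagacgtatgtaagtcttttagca

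In Per1, which encodes a repressor of the circadian clock, the centre of TTATGCAA lay 1 base from the centre of the peak. The distance was 2 bases in Aldh3b1, an aldehyde dehydrogenase gene, and 4 bases in Fam78a. In Plppr2, where the word stood 3 times, the nearest copy was 9 bases away, and in Nt5c3, a nucleotidase gene, it was 10 bases away. The word TTATGTAA lay 33 bases from the peak centre in Srgap1 (at the start of the noncoding gene Gm46183) and 39 bases away in 4931406C07Rik. In all 7 peaks the nearest marked word was thus close to the middle of the 400 bases. The other copies in Plppr2 were further away. A nearest word close to the centre was also seen in peaks within 1 kb of a gene end. Of 29 such peaks with a bZIP word in a window, 27 had it within 50 bases of the centre (median 13 bases).

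Words were counted on both strands, and none of the bZIP words is another one read on the other strand. TTATGCAA was in 5 of the 33 stretches (15.2%; 2 peaks overlapped a pair of windows each), against 0.743% of all 32851 promoter windows. TTATGTAA was in 2 of 33 (6.06%), against 0.938% of all windows, and its reverse complement TTACATAA is the same site. The words TTACGTAA, TTGCGCAA and TTACGCAA were in 0 of 33, against 0.119%, 0.183% and 0.167% of all windows. In the 155 stretches of peaks within 1 kb of a gene end, TTATGCAA and TTATGTAA were each in 5.16%. TTACGTAA was in 0.645% of those 155, TTGCGCAA in 3.87% and TTACGCAA in 6.45%. The promoter windows are 300 bases long, and the stretches shared with a near-end intragenic peak were shorter (median 230 bases). Other words searched were TGACTCA for AP-1, GGAAGTG for ETS factors, GATAA for GATA factors, CACCTG for E proteins, CAGCTG for other E-box factors, TGTGGT for RUNX factors and CACGTG for clock factors. Of these the RUNX word TGTGGT was in 18.2% of the 33 stretches and 16.8% of all windows, CAGCTG in 21.2% and 16.3%, and the GATA word GATAA in 9.09% and 25.4%. The others were also lower in the 33 stretches. TGACTCA was in 3.03% and 5.20%, GGAAGTG in 3.03% and 11.0%, CACCTG in 9.09% and 20.2%, and CACGTG in 3.03% and 7.15%. TTATGCAA was added to the search after the Per1 sequence had been read, so its count is a description. Among the 31 peaks, 18 had their centre within a window, and 6 of these 18 (33.3%, exact interval 13.3 to 59.0%) held at least 1 of the 5 words. Among 92 peaks within 1 kb of a gene end whose centre lay in a window, 27 did (29.3%, 20.3 to 39.8%). The 5 words include TTATGCAA, so these shares are also a description and not a test. TTATGCAA was in 5 of the near-end intragenic stretches and TTATGTAA in 2, so most of these words were the added one.

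The near-end intragenic peaks gathered on the start side of their hosts. Strand was known for the hosts of 699 peaks, and 459 of these peaks (65.7%, exact interval 62.0 to 69.2%) were closer to the start of transcription than to the stop, against 240 closer to the stop. The even split had an exact binomial two-sided p of 9.27e-17 (adjusted p = 1.02e-15 over the 11 tests here). The sequence that could hold such a peak was evenly divided, with 49.99% of it on the start side. Per 100 Mb of that sequence there were 286 peaks on the start side and 150 on the stop side, a ratio of 1.91. Peaks of 1 gene are not independent, and with each host counted once, by its peak nearest to a host end, the share was 66.5%. The start side share was higher close to a gene end, so this choice of peak can raise it. If all 166 peaks without a known strand were on the stop side, the start share would be 53.1% (exact binomial p = 0.077).

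The start side share was highest close to the gene end. It was 80.2% (81 of 101 peaks; exact interval 71.1 to 87.5%) at 1 to 2 kb, 73.8% (121 of 164; 66.4 to 80.3%) at 2 to 5 kb, 63.1% (118 of 187; 55.8 to 70.0%) at 5 to 10 kb and 56.3% (139 of 247; 49.8 to 62.6%) at 10 to 20 kb. The first 3 distance classes differed from an even split (exact binomial adjusted p = 1.76e-09, 1.76e-09 and 0.000558), and the class of 10 to 20 kb did not pass the test (exact binomial adjusted p = 0.0561). On the start side the density was 538 peaks per 100 Mb at 1 to 2 kb and 230 at 10 to 20 kb. On the stop side it was 133 and 178 peaks per 100 Mb at these distances, so density was lower with distance on the start side and not on the stop side.

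**Figure D1:**
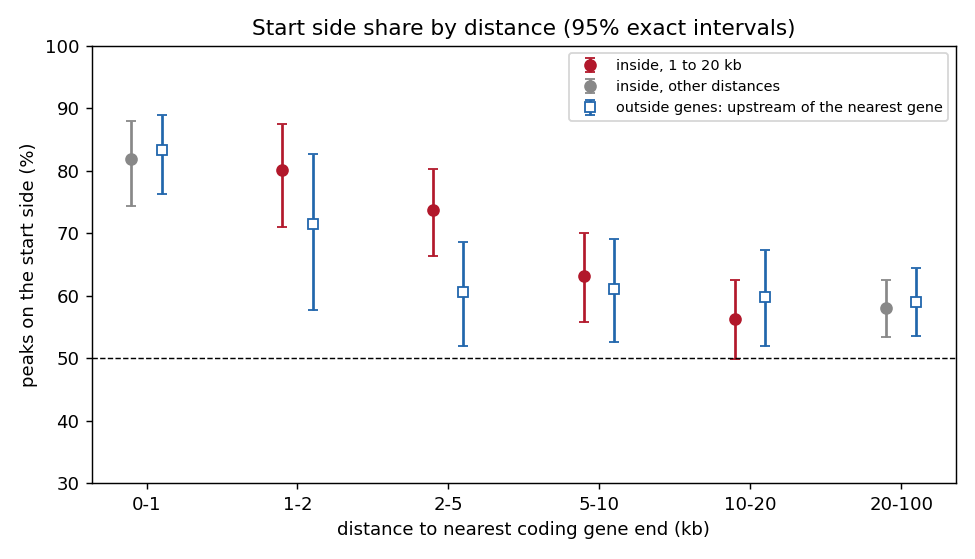
Share of peaks on the start side of the gene (vertical axis, percent) by distance to the nearest coding gene end (horizontal axis, kb), with 95% exact intervals. Filled circles are peaks inside genes (red, 1 to 20 kb) and open squares are peaks outside genes, counted as upstream of the nearest gene; the red share was 80.2% at 1 to 2 kb and 56.3% at 10 to 20 kb, and the dashed line marks 50%.

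The share differed from that of the neighbouring classes inside genes. It was above the 57.1% (313 of 548; exact interval 52.9 to 61.3%) of intragenic peaks beyond 20 kb of a gene end (Fisher's exact adjusted p = 0.00824). With noncoding genes added to the gene set the shares were 63.2% and 57.7%, and this difference no longer passed the test (Fisher's exact adjusted p = 0.107). It was below the 81.9% (113 of 138; 74.4 to 87.9%) of intragenic peaks within 1 kb of an end (Fisher's exact adjusted p = 0.000718). Among intergenic peaks at the same 1 to 20 kb, 314 of 509 with a strand lay upstream of the nearest gene rather than downstream (61.7%, 57.3 to 65.9%). The shares inside and outside genes were not tested against each other.

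**Figure D2:**
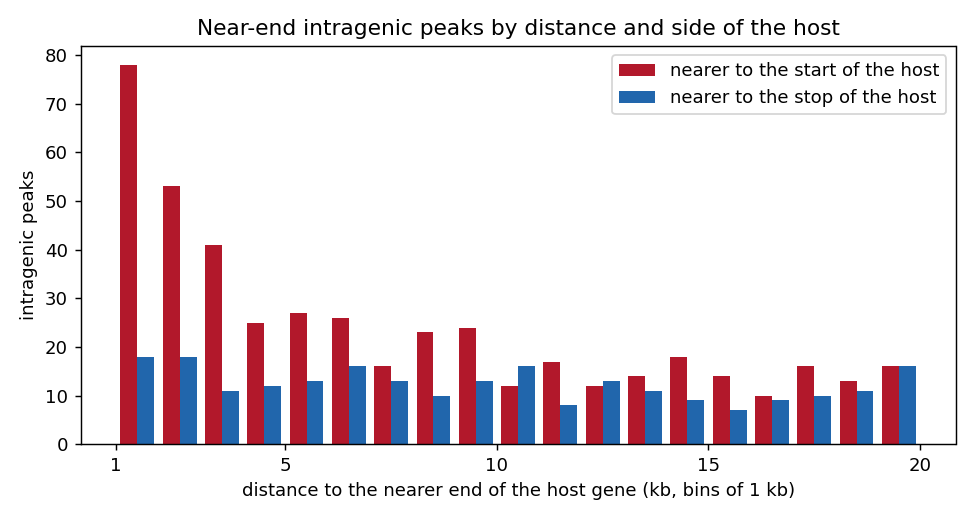
Number of near-end intragenic peaks (vertical axis) by distance to the nearer end of the host gene (horizontal axis, bins of 1 kb up to 20 kb), for hosts of known strand. Red bars are peaks nearer to the start of the host and blue bars those nearer to its stop, 459 against 240 in all, a few of them beyond 20 kb of their own host's end and not drawn.

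The 31 peaks at an annotated start were 3.64% of the 851 near-end intragenic peaks outside chromosome 18, for which no promoter window was used. In 23 of the 31 the start belonged to the host itself, that is, to an inner start of the same gene. In the other 8 it belonged to another gene, a long noncoding RNA in 7 and the coding gene Mideas in 1. List genes with such a start were Per1, Bmf, which encodes a pro-apoptotic BH3 protein, and, by way of noncoding RNA starts, Stat3, Cd9 and Smarca2. The Per1 peak was centred 20 bases from the inner start, and the Bmf peak 45 bases from one. Among intragenic peaks beyond 20 kb of an end, 15 of 674 (2.23%, exact interval 1.25 to 3.64%) overlapped a start, and the difference did not pass the test (Fisher's exact adjusted p = 0.289). Without the peaks at an annotated start, the start side share was 65.2%. No peak of the list overlapped a microRNA hairpin of the RefSeq table.

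The list of clock and PAR bZIP genes held 3 near-end intragenic peaks, all on the start side. Tef, a PAR bZIP factor, held 1 peak 7.56 kb from its start (chr15:81810031-81810430), with another peak 0.145 kb outside the start. Per1 held the peak shown above, 3.82 kb from its start (chr11:69098730-69099129), also with a peak 0.285 kb outside the start. Nfil3, the repressor that competes with PAR bZIP factors for their sites, held 1 peak 5.98 kb from its start (chr13:52976701-52977100). Hlf, Dbp and Per2 held none. In all, 3 of the 26 genes of this list were hosts (11.5%, exact interval 2.45 to 30.2%), against 4.22% of the 19304 coding genes over 2 kb.

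Cytokine receptor, JAK and STAT genes were hosts in 5 of 47 cases (10.6%, exact interval 3.55 to 23.1%). The 4.22% of all coding genes over 2 kb lies within this interval. Flt3, a receptor of early lymphoid and myeloid progenitors, held 2 peaks, 7.64 and 11.4 kb from its start. Il17ra, a receptor of interleukin 17, held 2 peaks, 7.63 and 10.5 kb from its lower coordinate end, with no strand at hand. Stat3, a transcription factor activated by cytokine receptors, held 1 peak 1.22 kb from its start (chr11:100938180-100938579). Tyk2 and Jak2, kinases bound to these receptors, held 1 peak each, at 2.40 and 19.5 kb from the start. Every peak of this list with a known strand was on the start side.

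Signalling adaptors, kinases and phosphatases had 8 hosts among 59 genes (13.6%, exact interval 6.04 to 24.98%), against 4.22% of all coding genes over 2 kb. Genes of this list are long, with a median of 64.1 kb, and 7.80% of all coding genes of 40 to 100 kb were hosts. Fes, a tyrosine kinase of myeloid cells, held a peak 1.18 kb from its start (chr7:80386571-80386970). Pik3r1, the regulatory subunit of PI3 kinase, held 1 at 2.10 kb, and Sh2b1, a receptor adaptor, 1 at 2.45 kb. Further in were the peaks of Inpp5d, which encodes the phosphatase SHIP1 (4.64 kb), Csk, a kinase that inhibits SRC kinases (6.80 kb), and Vav1, a guanine nucleotide exchange factor of blood cells (7.88 kb). Mapk14, the p38 alpha kinase, was different in that its 2 peaks, 0.837 kb apart, were on the stop side, at 11.7 and 12.5 kb from the end of transcription. The peak of Abl1, a tyrosine kinase, was also on the stop side, 19.8 kb from its end and 18.9 kb from an end of the neighbouring gene Qrfp.

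B lymphoid genes had 6 hosts among 30 (20%, exact interval 7.71 to 38.6%), against 4.22% of all coding genes over 2 kb. With distance limits of 2 and 10 kb they had 2. Pax5, the B cell commitment factor, held 1 peak 6.21 kb from its start (chr4:44704289-44704688). Cd38, a surface enzyme, held 1 peak 13.7 kb from its start. Foxo1 and Bach2, transcription factors of B cells, each held a peak on the stop side, 18.1 and 10.6 kb from the end. Ikzf3, which encodes Aiolos, held 2 peaks, 12.02 and 16.9 kb from its lower end, and Lyn, a SRC kinase, held 1 at 3.82 kb from its lower end, both without a known strand.

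Granulocyte and monocyte genes had 6 hosts among 42 (14.3%, exact interval 5.43 to 28.5%), against 4.22% of all coding genes over 2 kb. Trib1, a pseudokinase that drives degradation of C/EBP alpha, held 3 peaks in a gene of 8.45 kb, at 1.97, 3.73 and 4.36 kb from its lower end, and the closest pair was 0.632 kb apart. Itgb2, the shared beta chain of leukocyte integrins, held 1 peak 1.70 kb from its lower end (chr10:77531833-77532232). Itgax, which encodes CD11c, held 1 peak 4.28 kb from its start. Spi1, which encodes PU.1, held 1 at 14.3 kb from its lower end. The peaks of Ltf, a granule protein gene, and Nfe2l2, a transcription factor of the oxidative stress response, were on the stop side, 5.02 and 10.2 kb from the end. Genes of this list are short, with a median of 5.21 kb.

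**Figure D3:**
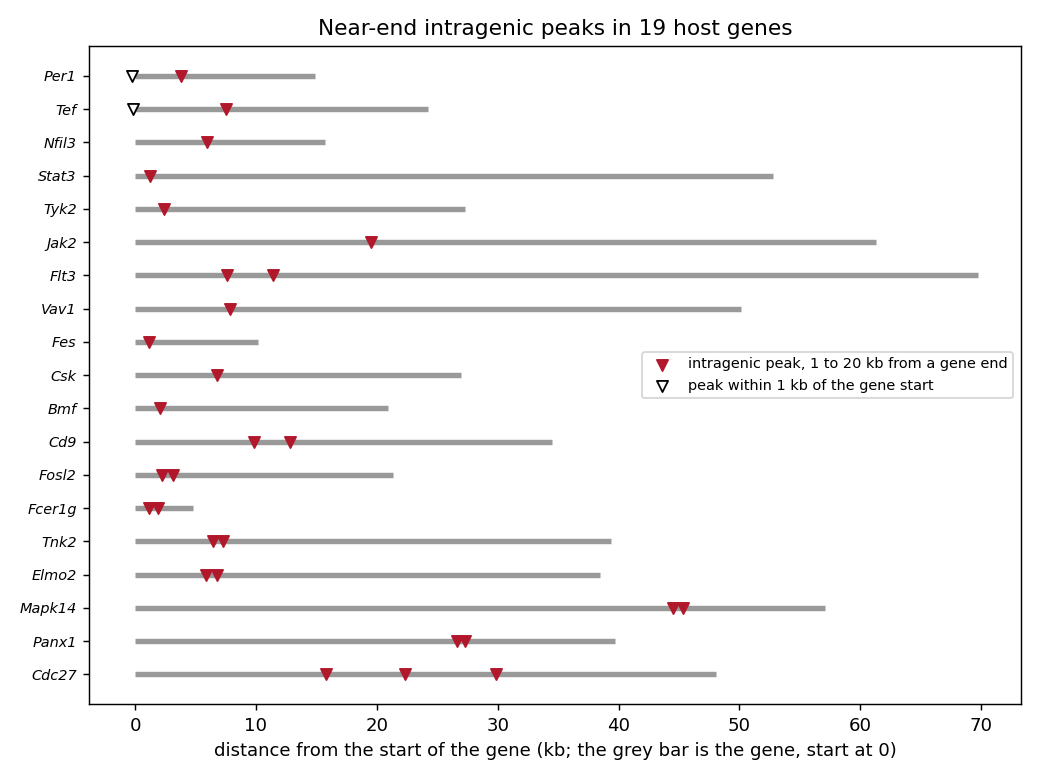
Map of 19 host genes of known strand, chosen after their values were seen, with distance from the gene start in kb on the horizontal axis and each gene as a grey bar drawn to scale. Red triangles are near-end intragenic peaks and open triangles are peaks within 1 kb of the start, which Per1 and Tef have. Red triangles of Mapk14 and Panx1 are nearer to the stop, and so is the Cdc27 triangle at 29.8 kb. List hosts with a stop-side peak such as Ltf, Foxo1, Bach2 and Runx1 are not drawn. The map therefore does not show the share of sides, which was 65.7% on the start side over all hosts of known strand.

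The remaining lists held 1 to 4 hosts each. The stem and progenitor transcription factor list had 2 of 43 (4.65%, exact interval 0.568 to 15.8%), and 5 of 43 when noncoding genes were added to the gene set. They were Runx1, a master regulator of blood stem cells, with a peak on its stop side 6.46 kb from the end (chr16:92607728-92608127), and Pbx3, a cofactor of HOX proteins. Adhesion and migration genes had 4 of 36 (11.1%), namely Pecam1 with 2 peaks, Cd47, Selp and Itga6. The peak in Cd47, which encodes a signal against phagocytosis, was 3.71 kb from the start. Chromatin regulators had 4 of 50 (8.00%), which were Smarca2, Kdm6b, Asxl1 and Hdac7. Smarca2, a remodelling ATPase, had its peak 1.63 kb from the start, and Asxl1, a Polycomb-associated gene, had its own at 5.25 kb. Erythroid and megakaryocyte genes had 2 of 25 (8.00%). Of these, Cd9, a tetraspanin gene, held 2 peaks at 9.85 and 12.8 kb from its start, and Lmna, which encodes lamin A, held 1 on its stop side. T and innate lymphoid genes had 2 of 26 (7.69%). Notch2, a Notch receptor gene, held 2 peaks 1.12 kb apart at 17.8 and 18.9 kb from its start, and Zbtb16, which encodes PLZF, held 1. Single hosts were found among liver and xenobiotic genes (Pdxk, 1 of 25), cell death genes (Bmf, 1 of 27), cell cycle genes (Cdc25b, 1 of 30) and neuronal genes (Celsr3, 1 of 30). Across the lists, 46 of 491 distinct genes were hosts (9.37%). The lists were chosen with earlier results of these data known, so their shares are a description and not a test against all genes. The list shares count every gene of a list, while the 4.22% is over genes above 2 kb, and of the 476 list genes above 2 kb 46 were hosts (9.66%). At limits of 2 and 10 kb, 25 list genes were hosts, with 3 in the cytokine list, 3 in the granulocyte and monocyte list, 5 in the signalling list and 3 in the clock list. With noncoding genes added, the clock list had 5 and the T and innate lymphoid list 4.

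**Figure D4:**
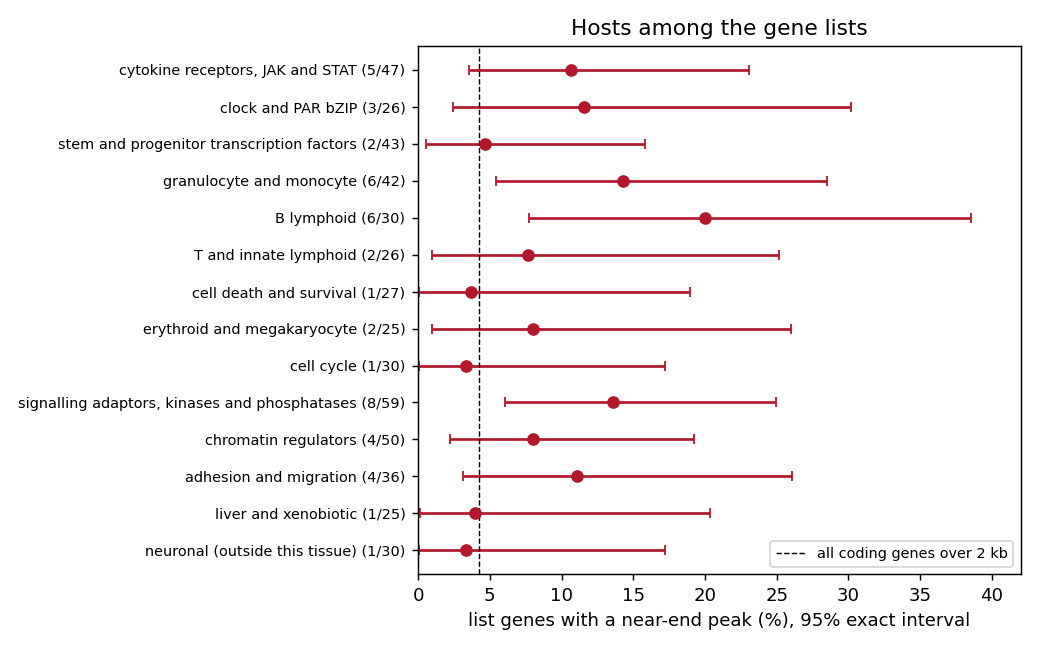
Share of the genes of each of the 14 lists that hold a near-end intragenic peak (horizontal axis, percent, with 95% exact intervals), with hosts and list size beside each name. The dashed line is the 4.22% of all coding genes over 2 kb. The B lymphoid point is at 20% (6 of 30), the intervals overlap widely, and no list was tested. The lists were chosen with earlier results of these data known.

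Longer genes were hosts more often, up to a point. Only genes over 2 kb can hold such a peak. A near-end intragenic peak was held by 0.992% of genes of 2 to 10 kb (53 of 5343; exact interval 0.744 to 1.30%) and by 2.93% of those of 10 to 20 kb (115 of 3923; 2.43 to 3.51%). The share was 5.63% (227 of 4031; 4.94 to 6.39%) at 20 to 40 kb, 7.80% (279 of 3578; 6.94 to 8.73%) at 40 to 100 kb and 5.76% (140 of 2429; 4.87 to 6.77%) above. The median host was 41.6 kb long, against 21.3 kb for all coding genes over 2 kb. The shares of the gene lists are to be read beside this, since list medians ran from 5.21 kb (granulocyte and monocyte) to 108.6 kb (neuronal). By sequence, the near-end intragenic peaks had a density of 214 per 100 Mb of the 404 Mb that the rule allows, against 180 per 100 Mb for intergenic sequence at the same distances and 121 for all peaks over the whole span.

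**Figure D5:**
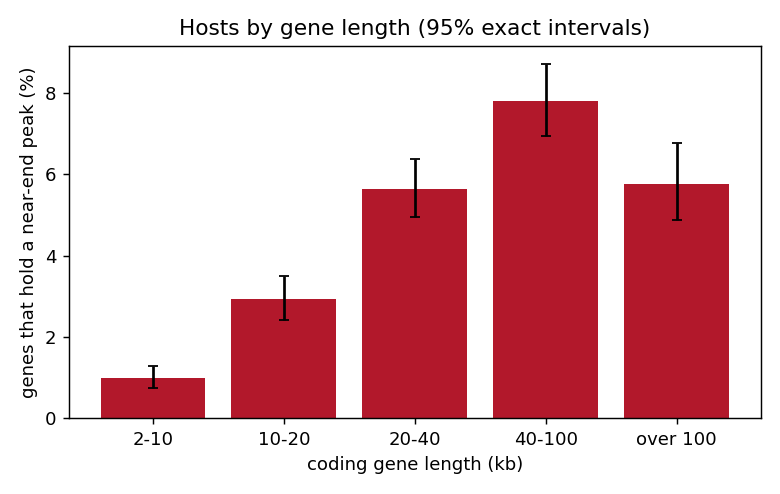
Share of coding genes that hold a near-end intragenic peak (vertical axis, percent, bars with 95% exact intervals) by gene length in kb (horizontal axis). The bars are 0.992% for genes of 2 to 10 kb, 7.80% for genes of 40 to 100 kb and 5.76% for longer ones.

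The 865 peaks were spread over 814 hosts, of which 765 held 1 peak, 47 held 2 and 2 held 3. The hosts with 3 were Trib1 and Cdc27, a subunit of the anaphase-promoting complex, whose peaks were 15.8, 22.3 and 29.8 kb from its start. In 24 of the 49 hosts with several, the peaks were within 5 kb of each other. After Trib1, whose closest pair is given above, the tightest pairs in 1 host were in Panx1, a channel gene (0.675 kb apart), Fcer1g, the common gamma chain of Fc receptors (0.748 kb), and Tnk2, a tyrosine kinase gene (0.761 kb). Next came Mapk14, then Vgf, a neuropeptide precursor gene (0.910 kb), Fosl2, an AP-1 factor (0.933 kb), and Elmo2, an activator of RAC signalling (0.934 kb). The peaks of Fcer1g were 1.17 and 1.91 kb from its start, and those of Fosl2 2.19 and 3.12 kb. Among the 39 hosts with several peaks and a known strand, all peaks were on the start side in 16, all on the stop side in 7, and on both sides in 16.

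A second peak within 5 kb was found for 71 of the 865 peaks (8.21%, exact interval 6.47 to 10.2%). This was 7.17% among the other 2288 peaks, 7.29% among intergenic peaks at the same distance and 6.70% among intragenic peaks beyond 20 kb, and none of these differences passed the test (Fisher's exact adjusted p = 0.48, 0.617 and 0.48). With the limit at 1 kb the share was 1.97%, against 0.285% of intragenic peaks beyond 20 kb (Fisher's exact adjusted p = 0.00618). It did not differ by the test from the 1.27% of the other peaks or the 1.24% of intergenic peaks at the same distance (Fisher's exact adjusted p = 0.285 and 0.427). In the 48 neighbouring pairs with at least 1 near-end intragenic peak, both peaks were of this kind and in the same host in 25 pairs, and in 13 the partner was no further than 1 kb from a gene end.

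A further peak, within 1 kb of an end of the same gene, was found for 26 of the 814 hosts (3.19%), and for 12 of the 573 hosts of peaks beyond 20 kb (2.09%). Hosts differ in length between these classes, so the shares were not tested. The share over all coding genes is not given here, so 3.19% cannot be read as particular to the hosts. Of the 22 such hosts with a known strand, 20 had that second peak at the start and 2 at the stop. Peaks within 1 kb of a gene end were mostly at the start in the whole list too. Inside genes 113 of 138 were on the start side (81.9%), and outside genes 120 of 144 were upstream (83.3%). Those of the gene lists were Per1, Tef, Trib1 and Itgb2. Others, named after their values were seen, were Nlrp3, an inflammasome sensor, with a peak 0.078 kb outside its start and another 1.97 kb inside, and Cd84, a SLAM family receptor, with peaks 0.826 and 10.04 kb from its start. Plek, a substrate of protein kinase C, had a peak 0.177 kb inside its start and a near-end peak 7.19 kb from its stop.

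The distance to the nearest gene end had a median of 6.91 kb (quartiles 3.08 and 12.5 kb). Nearest to the lower limit were peaks in Ttc33 (1009 bases), Nfx1 and Fbxo31 (1011 bases each), and just outside it were peaks in Eif4a1 (988 bases), Epha10 (983) and Acsl1 (976). At the upper limit the last peaks inside were in Nedd9 (19977 bases), Slc2a3 (19894) and Prr5l (19890), and the first outside in Syne3 (20006), Notch1 (20031) and Kat2b (20415). For 787 peaks (91.0%) the nearest end belonged to a gene that held the peak, and for 78 to another gene. A pair of overlapping coding genes held 12 of the peaks, and 853 were in 1 gene only.

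The near-end intragenic peaks were found on all 19 autosomes and on X. They made up 36.3% of the peaks of chromosome 5 (62 of 171; exact interval 29.1 to 43.9%), 35.2% of those of chromosome 11 (86 of 244; 29.3 to 41.6%) and 35.2% of those of chromosome 19 (38 of 108; 26.2 to 45.0%). The lowest share was 16.9% on chromosome 18 (14 of 83; 9.54 to 26.7%). On X there were 8 of them, 0.925% of the class, against 0.743% of the other peaks (Fisher's exact adjusted p = 0.653). Of the class, 47.6% (exact interval 44.3 to 51.0%) were among lines 1 to 1576 of the file, whose order is not explained, against 50.9% of the other peaks (Fisher's exact adjusted p = 0.289).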

How the data were processed

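Anti-FLAG ChIP-seq peaks of 1 FLAG-HLF library were used. Per the submitters' processing notes, the tools were MACS2, Bowtie2 and bedtools (no role or version stated) and the build was GRCm38, or mm10. The deposited file lists 3153 intervals of 400 bases and its caller threshold was not given in the sources used here. Gene bounds came from RefSeq (GRCm38.p6; 21900 coding genes), and strand and starts from its promoter windows, which cover 79.9% of the coding genes and none on chromosome 18. The host was the coding gene whose own end was nearest, and its side was the gene end nearer to the peak centre. The sequence open to the rule was measured on a grid of 100 bases. Shares have exact Clopper-Pearson intervals at 95%, which cover counting error only. Tests were two-sided exact binomial or Fisher tests with Benjamini-Hochberg adjustment over 11 tests, and over 4 for the distance classes. Peaks are not replicates, and p-values compare peaks of this library. The side assignment was tested on simulated data. Members, lists and rules were chosen with earlier results of these data known. The test of annotated starts, the distance classes, the grid and the word TTATGCAA were added after the data were seen. Named genes were up to 6 hosts per list, ranked by peaks and then distance, up to 10 hosts with the most peaks (ties by span), list hosts with a peak at an end, and peaks at the limits; Vav1, Abl1, the sequence hosts and genes so marked were named after their values were seen. No genome was used, so motifs were read only in promoter windows, and the planned motif test was not run. Exons and introns were not told apart. Alternatives changed limits, gene set, end assignment, neighbour distance and lines. Tests used scipy 1.17.1, tables pandas 2.3.3 and numpy 2.4.6, and plots matplotlib 3.10.9, in Python 3.11.15.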

Additional observations from a re-analysis of the deposited data

How the results depend on the processing

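The start side share kept its direction and passed the test of an even split under the 5 alternatives run (63.2 to 68.1%). With all 166 peaks of unknown strand put on the stop side, the share would be 53.1% and would not pass (exact binomial p = 0.077). Its difference from intragenic peaks beyond 20 kb was not called with noncoding genes included (63.2% against 57.7%, Fisher's exact adjusted p = 0.107). The overlap with annotated starts was called there (2.55% against 0.637%, Fisher's exact adjusted p = 0.0386), and the share with a neighbour within 1 kb was called against peaks beyond 20 kb (1.97% against 0.285%) but not against the other peaks (1.27%) or intergenic peaks (1.24%). Differences that were not called changed direction in 6 cases. The share with a neighbour, against intergenic peaks, was 7.69% against 7.93% at limits of 2 and 10 kb, and 19.2% against 19.5% within 20 kb. The share on X was 0.746% against 0.822% with noncoding genes. In the first 315 lines the share was 11.1%, against 9.57% of the other peaks, 10.2% of intergenic peaks at the same distance and 8.12% of peaks beyond 20 kb. Limits of 2 and 10 kb gave 442 peaks and 25 list hosts. Single lists moved by over 1.5 times in 10 cases at these limits and in 5 with noncoding genes. Peaks with TTACGTAA or TTATGTAA numbered 1 in place of 2 at those limits, with noncoding genes, and with the nearest end in the own gene. Of 99 alternative values for 29 results, 70 kept direction and side of the threshold, or stayed within 1.5 times. The cause of the changes was not tested. No paired analysis was possible because there was 1 library per arm, and none could be left out. Depth is unknown, and the strand of 166 peaks was not given in the tables used.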
